A study of Gallus gallus with 10 samples.

Results

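The 10 genes described here are FGF receptors and genes that FGF signalling switches on in its own feedback loop, in chick cranial neural folds with and without an NSD3 morpholino. They are FGFR1, FGFR2 and FGFR3, the feedback inhibitors SPRY1, SPRY2, SPRY4, SPRED1 and DUSP6, and the transcription factor genes ETV4 and ETV5. They were chosen by name, with earlier results of these data known. Each of the 10 was found through its symbol in the deposited expression table, and had 1 row among the 19168 rows of that table. Poly(A) RNA was sequenced in 10 libraries, each from a pool of 12 Gallus gallus embryos. Of these, 5 were controls that received a control morpholino (mmMO in the labels), and 5 received an NSD3 morpholino (NSD3 MO) and are called morphants here. A morpholino is a synthetic antisense molecule that keeps its target RNA from being translated or spliced, and NSD3 encodes a histone methyltransferase. The labels do not say which step the NSD3 morpholino blocks. In both groups the morpholino, at 0.5 mM, was electroporated into both sides of Hamburger-Hamilton stage 4 to 5 embryos together with 300 ng/µL of the carrier plasmid pCS2+myc. The folds were collected at 5 to 7 somites. The question was how transcript levels differed between the groups when NSD3 was targeted.

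FGF ligands bind receptor tyrosine kinases with the help of heparan sulfate, and the receptors signal through RAS and the kinase ERK. ERK activity switches on the ETS factors ETV4 and ETV5 and a set of inhibitors that damp the same cascade: Sprouty and SPRED proteins act on the steps up to RAF, and DUSP6 removes the activating phosphates from ERK. Transcripts of these genes are widely used as readouts of FGF signalling in vertebrate embryos. In the chick ectoderm FGF signalling takes part in neural induction, in setting up the neural plate border and in patterning the midbrain and hindbrain.

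Values are the deposited FPKM, fragments per kilobase of a transcript's length and per unit of library size, so levels of different genes can be set beside each other. Relative depth, read from the steps between low FPKM values, ran from 0.887 to 1.29 of the geometric mean over the libraries, and 16238 to 16638 genes were above 0 in each. The targeted transcript itself averaged 22.9 ± 2.29 FPKM in controls and 17.9 ± 1.36 FPKM in morphants (SD, n = 5 each). NSD3 ran from 20.8 to 25.9 FPKM in controls and from 15.9 to 19.5 FPKM in the other group, without overlap, a log2 fold change of -0.34 (limma adjusted p 0.055). It passed with a mean of at least 5 FPKM required (adjusted p 0.048) and with FPKM rescaled to the same total (0.036), and over the other settings the adjusted p of NSD3 ran up to 0.143. The authors' deposited table lists NSD3 with a log2 fold change of -0.35 at an adjusted p of 0.00439. In control replicates 4 and 5 NSD3 stood at 24.7 and 25.9 FPKM. Control replicate 5 also stood apart in most of the FGF feedback genes and in some genes outside them, as described below. Without these 2 pools the log2 fold change of NSD3 was -0.24 (adjusted p 0.117). Fold changes of the tested genes among the 10 that rest on 1 or both pools are given with and without them. Those of SPRY4, the FGF ligands and the other genes named below are given with all pools only. The libraries of a group are separate pools of embryos. The limma p-values set the difference between groups against the spread between those pools, with each gene's spread drawn toward the trend over all tested genes.

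All but 1 of the 10 genes were well expressed in control neural folds. FGFR1 had the highest level, 164 ± 18.3 FPKM (SD, n = 5), above that of 98.2% of all rows of the table. FGFR3 followed at 60.4 ± 10.1 FPKM, ETV5 at 42.7 ± 7.62 FPKM, FGFR2 at 34.3 ± 2.97 FPKM and DUSP6 at 20.6 ± 3.66 FPKM. SPRED1 (14.2 ± 1.75 FPKM), ETV4 (12.6 ± 2.07 FPKM), SPRY1 (12.3 ± 3.64 FPKM) and SPRY2 (10.7 ± 2.59 FPKM) were close to each other. SPRY4 averaged 0.423 ± 0.252 FPKM. In this order the ranges of the 5 control pools did not overlap between FGFR1 and FGFR3, between FGFR2 and DUSP6, between DUSP6 and SPRED1, or between SPRY2 and SPRY4. FGFR3, ETV5 and FGFR2 overlapped with their neighbours, as did SPRED1, ETV4, SPRY1 and SPRY2. The control pools of FGFR3 (48.4 to 73.0 FPKM) still all lay above those of FGFR2 (29.8 to 37.6 FPKM). Compared within single control pools, ETV5 was above FGFR2, and ETV4 above SPRY2, in every pool. The order of the genes was not tested. SPRY4 did not reach the mean of 1 FPKM that was required for testing, and 9 of the 10 genes entered the fit.

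**Figure D1:**
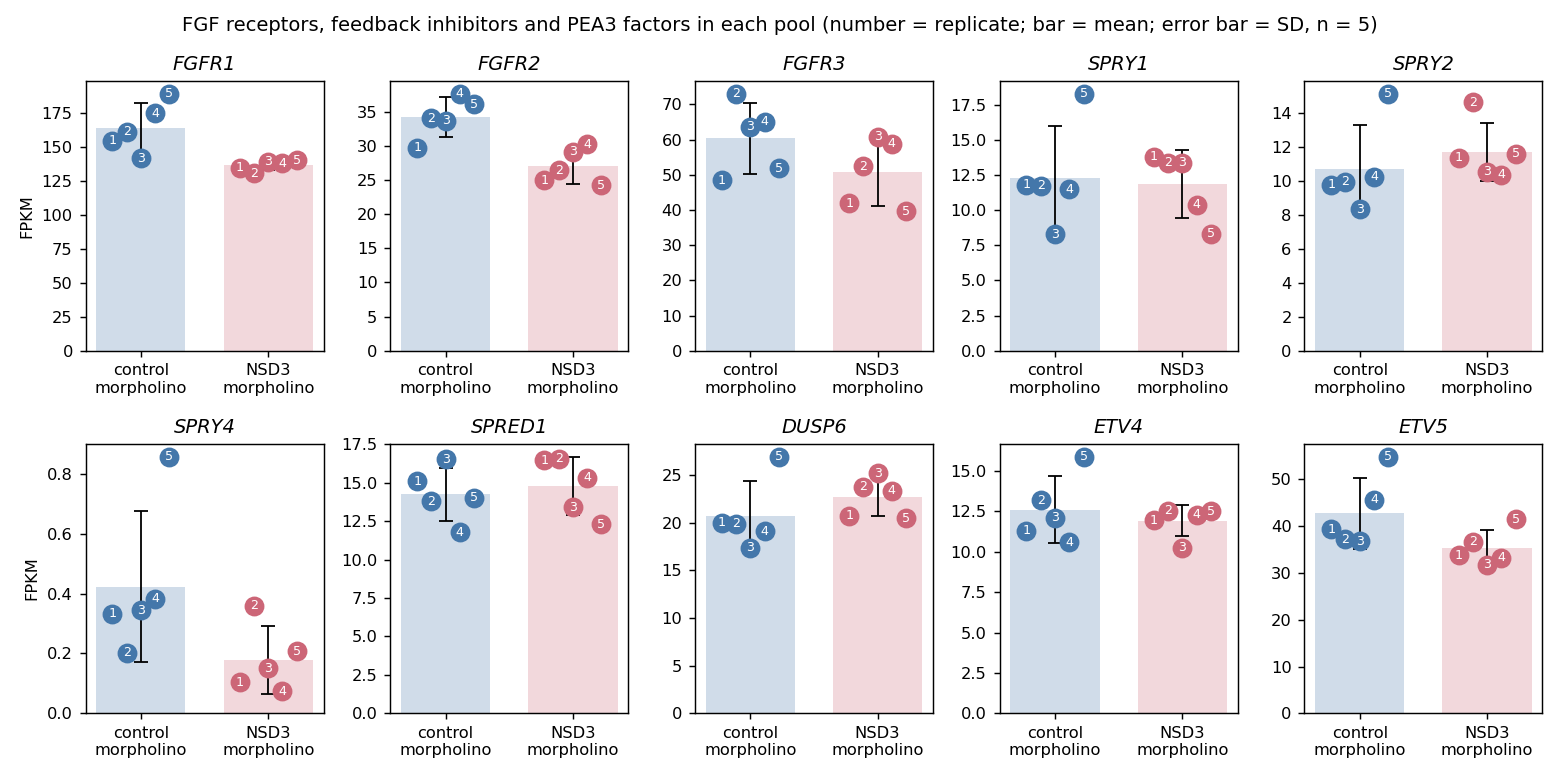
FPKM (vertical axes, each from 0) of the 10 genes in each pool of controls and of NSD3 morpholino embryos (morphants). Points are pools with their replicate number, bars are group means and error bars are SD (n = 5). All 5 morphant pools of FGFR1 lie at 131 to 140 FPKM, below the control pools at 141 to 189 FPKM, and control replicate 5 is the highest pool in 7 of the 10 panels.

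The 3 receptor genes had lower mean FPKM in morphants, at 0.788 to 0.84 of the control mean, and none of them passed the test over all genes. FGFR1, the most abundant receptor transcript here, stood at 154, 161, 141, 175 and 189 FPKM in control replicates 1 to 5 and at 135, 131, 139, 138 and 140 FPKM in morphant replicates 1 to 5. The lowest control pool was just above the highest morphant pool, so the groups did not overlap, and the morphant pools lay much closer together, with a coefficient of variation of 2.85% against 11.2% in controls. The fitted log2 fold change of FGFR1 was -0.26 (SE 0.0734, 95% interval -0.42 to -0.10), with a limma adjusted p of 0.0888. In the background of 11935 tested genes, 2.36% had all morphant pools below all control pools, and 6.04% did not overlap in either direction. FGFR1 was the only one of the 10 genes without overlap.

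FGFR2, a receptor whose splice forms differ in the ligands they bind, stood at 29.8, 34.1, 33.7, 37.6 and 36.1 FPKM in control replicates 1 to 5. In morphant replicates 1 to 5 it stood at 24.99, 26.4, 29.1, 30.2 and 24.2 FPKM. The groups overlapped only through control replicate 1, which was below morphant replicate 4. The log2 fold change of FGFR2 was -0.34 (SE 0.084, 95% interval -0.52 to -0.16), the largest in size of the 9 tested genes, with a limma adjusted p of 0.0575 over all genes.

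FGFR3 stood at 48.4, 73.0, 63.6, 65.1 and 51.8 FPKM in the controls and at 41.9, 52.5, 60.8, 58.8 and 39.6 FPKM in morphants. Its pools spread widely in both groups: control replicates 1 and 5 and morphant replicates 1 and 5 were the low ones, and the groups overlapped. Its log2 fold change was -0.25 with a 95% interval of -0.57 to 0.06 and a limma adjusted p of 0.382, so the data allow both a fall of about the size seen in FGFR2 and none. With the replicate number added to the fit as a block, the limma adjusted p of FGFR3 was 0.139.

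In the authors' deposited table of 674 changed genes, FGFR1 and FGFR2 are both listed as lower, and FGFR3 and the 7 feedback genes are not listed. The authors' deposited table gives FGFR1 a mean count of 6090 and a log2 fold change of -0.27, at an adjusted p of 0.0317. For FGFR2 the authors' deposited table gives a mean count of 1004 and a log2 fold change of -0.34, at an adjusted p of 0.00839. The authors' deposited table lists 3.52% of all rows of the FPKM table, and 1.65% with a negative fold change. These shares count all 19168 rows, of which 11935 reached the mean required for the fit made here. They are therefore not on the same base as the shares of tested genes, and would be larger among expressed genes alone. The sizes of change are close to those fitted here, and the call differs. In the fit made here FGFR2 passed when FPKM were rescaled to the same total (adjusted p 0.0345) or without control replicate 1 (0.0467), and FGFR1 passed without control replicate 3 (0.031). Over all other settings the limma adjusted p of the 2 genes ran up to 0.209. With control replicates 4 and 5 left out, the fitted change on the log2 scale was -0.16 for FGFR1 (adjusted p 0.148) and -0.27 for FGFR2 (adjusted p 0.129), so the FGFR1 value was smaller in size by more than 1.5 times.

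The makeup of the receptor pool was nearly the same in the groups. FGFR1 made up 63.4% ± 3.90 (SD, n = 5) of the summed FPKM of the 3 receptors in controls and 63.9% ± 3.68 in morphants. FGFR2 made up 13.2% ± 0.592 and 12.6% ± 0.529, and FGFR3 23.4% ± 3.66 and 23.5% ± 3.22. Without control replicates 4 and 5 the control shares were 61.9%, 13.2% and 24.9%. The sum of the 3 ran from 233 to 277 FPKM in controls and from 202 to 229 FPKM in morphants. In bulk tissue such a difference can come from fewer cells that express a gene or from less RNA per cell, and these cannot be told apart here. Of the other receptor genes, FGFR4 averaged 19.3 ± 4.43 FPKM in controls and 17.8 ± 2.46 FPKM in morphants (limma adjusted p 0.769), and FGFRL1, which lacks the kinase domain, 3.93 ± 0.606 and 3.57 ± 0.728 FPKM (limma adjusted p 0.693).

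Of the 5 feedback inhibitors, DUSP6, SPRY2 and SPRED1 had slightly higher mean FPKM in morphants, at 1.04 to 1.10 of the control mean, and SPRY1 and SPRY4 lower ones, at 0.962 and 0.423. DUSP6, the ERK phosphatase, stood at 20.002, 19.8, 17.3, 19.1 and 26.9 FPKM in control replicates 1 to 5 and at 20.7, 23.8, 25.2, 23.3 and 20.5 FPKM in morphants. Control replicate 5 was the highest pool of all, and the other 4 controls were all below the lowest morphant pool. The log2 fold change of DUSP6 was 0.14 (SE 0.11, 95% interval -0.10 to 0.39; limma adjusted p 0.533). Without control replicate 5 it was 0.24, with an adjusted p of 0.159.

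SPRY2, a Sprouty inhibitor of the RAS-ERK cascade, showed the same arrangement. It stood at 9.77, 9.96, 8.34, 10.2 and 15.1 FPKM in controls and at 11.4, 14.7, 10.6, 10.4 and 11.6 FPKM in morphants. Again 4 of the 5 control pools were below every morphant pool and control replicate 5 was above them all. Its log2 fold change was 0.14 (95% interval -0.18 to 0.46; limma adjusted p 0.66), and 0.27 without control replicate 5 (adjusted p 0.239).

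SPRY1, the other Sprouty gene at a comparable level, stood at 11.8, 11.7, 8.28, 11.5 and 18.3 FPKM in controls and at 13.8, 13.4, 13.4, 10.4 and 8.32 FPKM in morphants. The groups covered much the same range, with low pools in each. Its log2 fold change was -0.03 (95% interval -0.45 to 0.38; limma adjusted p 0.953), and turned to 0.11 without control replicate 5. The interval allows ratios of morphants to controls from 0.732 to 1.3.

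SPRED1, a membrane protein that restrains RAS activation together with neurofibromin, stood at 15.1, 13.8, 16.5, 11.8 and 14.005 FPKM in controls and at 16.5, 16.5, 13.4, 15.3 and 12.3 FPKM in morphants. The groups overlapped over nearly their whole range, and control replicate 5 was in the middle. Its log2 fold change was 0.05 (95% interval -0.18 to 0.29; limma adjusted p 0.842).

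SPRY4, the least abundant of the 10 genes, stood at 0.332, 0.202, 0.344, 0.382 and 0.857 FPKM in controls and at 0.104, 0.360, 0.151, 0.074 and 0.207 FPKM in morphants. The morphant mean was 0.179 ± 0.113 FPKM. The groups overlapped: morphant replicates 2 and 5 were above control replicate 2, and the other 3 morphant pools were below every control. With no filter on low values its log2 fold change was -0.42 (95% interval -0.80 to -0.04; limma adjusted p 0.286), on a scale that understates changes at so low a level. Control replicate 5, the highest pool, is included in that fit. SPRY4 was 1.74% ± 0.588 of the summed Sprouty FPKM in controls and 0.738% ± 0.397 in morphants, while SPRY1 and SPRY2 made up nearly all the rest in about equal parts, 52.3% ± 2.10 and 45.9% ± 1.98 in controls. Without control replicates 4 and 5 the control share of SPRY4 was 1.49% ± 0.553 (SD, n = 3).

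The PEA3 group ETS factors are direct transcriptional outputs of the pathway. ETV5 stood at 39.2, 37.2, 36.7, 45.5 and 54.8 FPKM in controls and at 33.8, 36.6, 31.7, 33.2 and 41.5 FPKM in morphants. Control replicates 4 and 5 were the highest pools, and 4 of the 5 morphant pools were below every control. The log2 fold change of ETV5 was -0.26 (95% interval -0.51 to -0.01), with a limma adjusted p of 0.259. Without control replicates 4 and 5 it was -0.10 with an adjusted p of 0.562.

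ETV4 stood at 11.3, 13.2, 12.1, 10.6 and 15.9 FPKM in controls and at 12.0, 12.6, 10.3, 12.3 and 12.5 FPKM in morphants. The groups overlapped, with control replicate 5 the highest pool. Its log2 fold change was -0.07 (95% interval -0.31 to 0.17; limma adjusted p 0.784). ETV5 was the major transcript of this pair in both groups, at 73.8% to 81.1% of their summed FPKM in the control pools and 73.0% to 76.8% in the morphant pools.

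**Figure D2:**
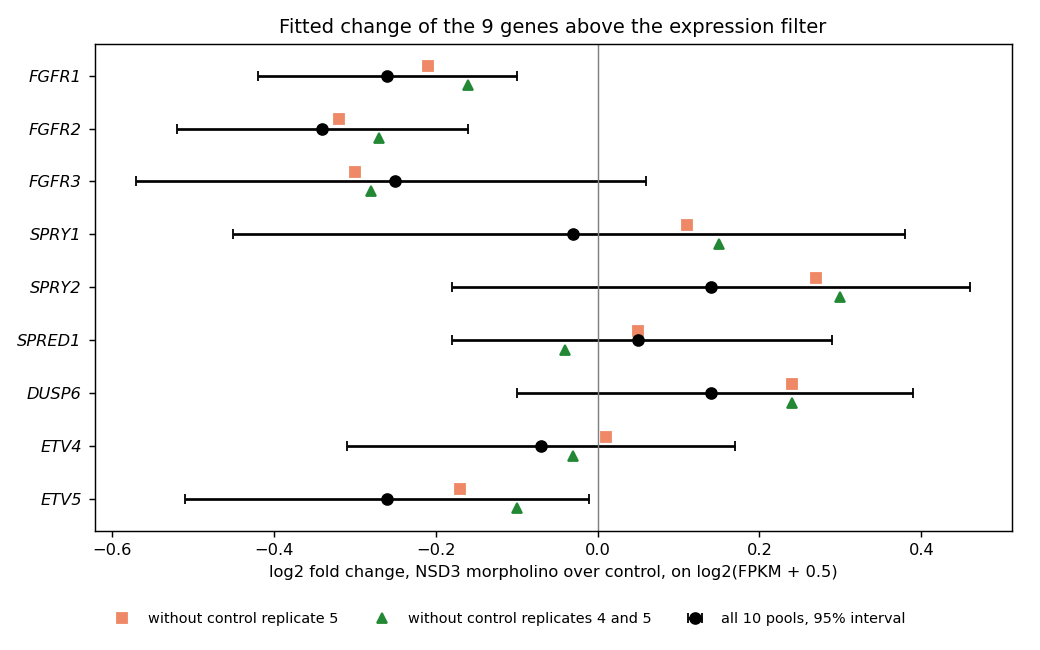
Fitted log2 fold change of morphants over controls (horizontal axis) for the 9 genes above the filter, with 95% intervals for all 10 pools. Squares give the same fit with control replicate 5 left out, and triangles with control replicates 4 and 5 left out. The 3 receptors stay below 0 in each, while DUSP6 and SPRY2 move up to 0.24 and 0.27 without control replicate 5.

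Of the 9 tested genes 0 were called higher or lower by limma at an adjusted p under 0.05, where 2.52% of the 11935 tested genes were called. In that fit 179 genes were higher and 122 lower, and 125 and 173 with FPKM rescaled to the same total. At an unadjusted p under 0.05, 3 of the 9 passed, FGFR1, FGFR2 and ETV5, all with lower values, against 18.1% of all tested genes in either direction and 8.29% in the lower direction. The genes were chosen with earlier results of these data known, so these shares cannot show whether the set changed more than other genes. The median log2 fold change of the 9 genes was -0.07, from -0.34 to 0.14, beside -0.003 over all tested genes. By role, the median was -0.26 for the 3 receptors, -0.16 for the 2 PEA3 factors and 0.10 for the 4 tested feedback inhibitors. None of these differences between roles was tested, since the genes are not replicates of a role.

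Much of the spread in the feedback genes came from 1 pool. Control replicate 5 held the highest level of 7 of the 10 genes, FGFR1, SPRY1, SPRY2, SPRY4, DUSP6, ETV4 and ETV5. Its median deviation over the 7 feedback genes was 0.44 on the log2 scale, and in the other 9 pools it ran from -0.10 to 0.15. SPRED1 was not part of this, at -0.04 in control replicate 5. For the receptors the median deviation of control replicate 5 was 0.25, the same as in control replicate 4. FGFR3, at -0.07, did not share it.

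**Figure D3:**
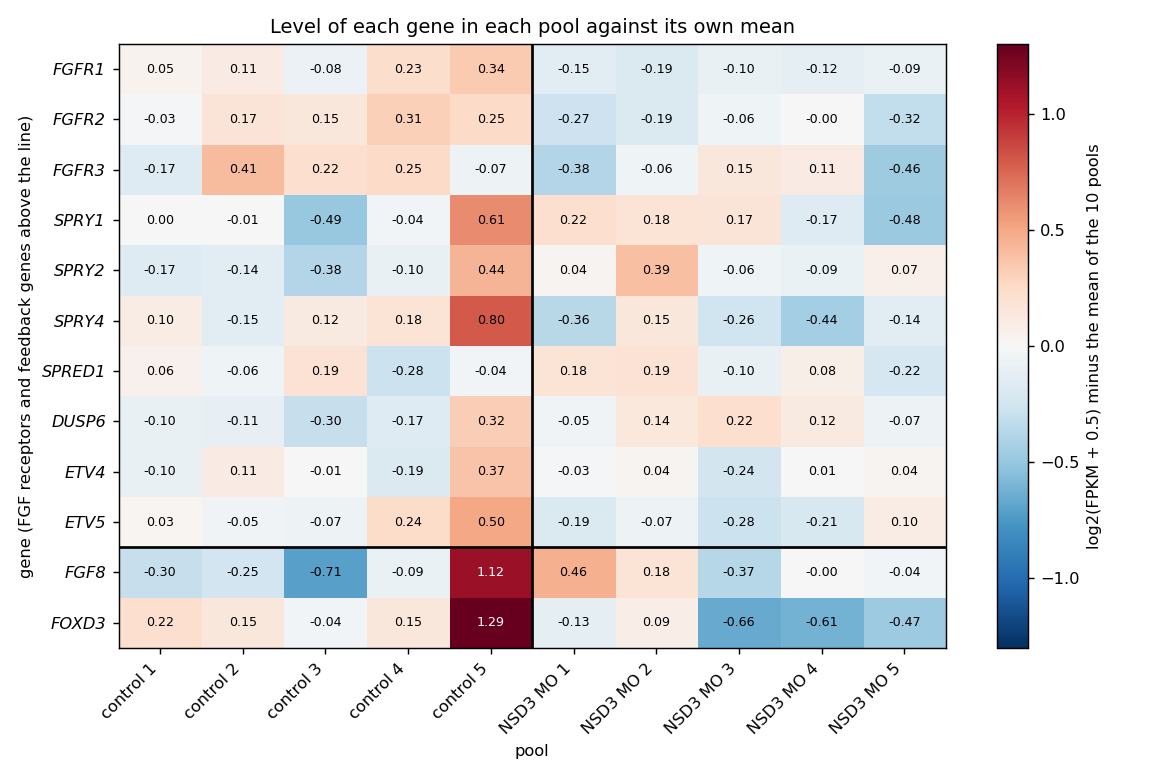
Log2(FPKM + 0.5) of each gene (rows) in each pool (columns) minus its mean over the 10 pools, in colour and as a printed value. FGF8 and FOXD3 stand below the line. The column of control replicate 5 is highest for FGFR1, SPRY1, SPRY2, SPRY4, DUSP6, ETV4, ETV5, FGF8 and FOXD3, and the receptor rows are mostly below 0 in the morphant pools.

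The levels of the 10 genes were also compared with each other across the 10 pools, as 45 pairs of log2(FPKM + 0.5) values. The pools share their scaling and 2 groups, so these values describe the libraries. Pearson's r was at least 0.6 in 8 pairs. The highest was SPRY4 with ETV5, with r = 0.87 (permutation p 0.00202) and Spearman's rho = 0.76 (permutation p 0.0148), both two-sided. Its r was 0.63 without the 2 pools farthest from the median of SPRY4 and 0.69 without control replicate 5. SPRY4 ran from 0.074 to 0.857 FPKM, below the mean required for testing, so this pair rests on low values. After Benjamini-Hochberg adjustment over the 45 pairs the permutation p of SPRY4 with ETV5 was 0.0731 for r and 0.166 for rho, and 0 pairs passed 0.05. Next was FGFR1 with ETV5, with r = 0.84 (permutation p 0.00325, adjusted 0.0731) and rho = 0.79 (permutation p 0.00833, adjusted 0.162). Its r was 0.38 without the 2 pools farthest from the median of FGFR1 and 0.68 without control replicate 5. FGFR1 with FGFR2 had r = 0.79 (permutation p 0.00658, adjusted 0.0987) and rho = 0.78 (permutation p 0.0108, adjusted 0.162). Its r was 0.62 without those 2 pools and 0.77 without control replicate 5. SPRY2 with DUSP6 had r = 0.76 (permutation p 0.0101, adjusted 0.113) and rho = 0.81 (permutation p 0.00679, adjusted 0.162), 0.54 without the 2 pools farthest from the median of SPRY2, and 0.62 without control replicate 5. FGFR2 with FGFR3 had r = 0.76 (permutation p 0.0126, adjusted 0.113) and rho = 0.71 (permutation p 0.0277, adjusted 0.229), 0.62 without the 2 pools farthest from the median of FGFR2, and 0.87 without control replicate 5. The lowest was FGFR1 with SPRED1, at r = -0.52 (permutation p 0.126, adjusted 0.435) and rho = -0.56 (permutation p 0.0964, adjusted 0.484), and -0.36 without the 2 pools farthest from the median of FGFR1. Without control replicate 5, 5 pairs had r of at least 0.6, and the median r over the pairs went from 0.22 to -0.05. With group means subtracted, r was 0.80 for SPRY4 with ETV5, 0.76 for FGFR1 with ETV5 and 0.43 for FGFR1 with FGFR2. On that scale r was 0.73 for SPRY2 with DUSP6, 0.73 for FGFR2 with FGFR3 and -0.62 for FGFR1 with SPRED1.

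The gene whose pattern across pools was most like the mean profile of the 7 feedback genes, after group means were subtracted, was FOXD3, with r = 0.97 over the 10 pools among 10490 genes compared. FOXD3, a transcription factor gene of early neural crest, stood at 731 FPKM in control replicate 5 and at 291 to 347 FPKM in the other controls. In morphants FOXD3 ran from 189 to 318 FPKM (log2 fold change -0.71, limma adjusted p 0.133). That difference between groups does not enter its r, since group means were subtracted. The next were NDUFB4 (r = 0.96), a subunit of mitochondrial complex I, the ribosomal protein gene RPL9 (0.93), TCEA2 (0.93), a transcription elongation factor, and the matrix glycoprotein gene TNC (0.93). With control replicate 5 then left out, these r values were 0.92, 0.88, 0.81, 0.82 and 0.89. The subtracted group means still included that pool, so these 5 values are not free of it and do not show a likeness without it. All these r values are given as a description, since the profile was searched over all genes.

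Among the FGF ligands, FGF8, the ligand of the midbrain-hindbrain boundary and anterior neural ridge, was the most abundant. FGF8 stood at 5.46, 5.67, 4.00, 6.38 and 15.5 FPKM in control replicates 1 to 5 and at 9.56, 7.79, 5.16, 6.82 and 6.65 FPKM in morphants. Control replicate 5 was far above the other 9 pools, and the groups overlapped (log2 fold change 0.09, 95% interval -0.53 to 0.71, limma adjusted p 0.909). That fold change of FGF8 includes control replicate 5 and is not given without it. In controls and morphants, in that order, FGF18 averaged 3.85 ± 0.818 and 4.20 ± 1.25 FPKM and FGF22 2.19 ± 1.24 and 1.51 ± 0.564 FPKM, and FGF16 ran from 2.42 to 3.99 and from 1.61 to 5.80 FPKM.

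FGF19, FGF3 and FGF2 had higher means in morphants and wide intervals. FGF19 averaged 1.44 ± 0.507 FPKM in controls and 2.81 ± 1.53 FPKM in morphants, and its pools ran from 0.603 to 1.82 FPKM and from 0.987 to 4.77 FPKM (log2 fold change 0.67, limma adjusted p 0.315). FGF3, a hindbrain and otic ligand, ran from 0.526 to 2.14 FPKM in controls and from 0.674 to 4.63 FPKM in morphants (0.52, limma adjusted p 0.554), and FGF2 1.08 ± 0.495 and 1.58 ± 0.334 FPKM (0.44, limma adjusted p 0.324). Of 14 ligand genes with a row, 7 were tested and 0 were called, beside 2.52% of all tested genes. The other 7 averaged under 1 FPKM.

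Around the receptors, 0 of 14 tested co-receptor and further receptor genes and 0 of 11 heparan sulfate enzyme genes were called. Over all 11935 tested genes 2.52% were called. With lists this short, 0 calls here and in the lists below do not set them apart from other genes. GPC4, a glypican, averaged 84.0 ± 6.36 FPKM in controls and 96.1 ± 3.32 FPKM in morphants, without overlap (log2 fold change 0.19, limma adjusted p 0.122). Of all tested genes, 6.04% did not overlap in either direction. SDC3, a syndecan, averaged 23.4 ± 4.65 and 17.2 ± 2.12 FPKM (-0.42, limma adjusted p 0.112), and SDC1 74.5 ± 3.92 and 83.7 ± 6.96 FPKM (0.17, limma adjusted p 0.214). HS6ST1 and HS6ST2, which add 6-O-sulfate to heparan sulfate, had log2 fold changes of -0.21 and -0.18 (limma adjusted p 0.163 and 0.281), and the polymerase gene EXT2 -0.12 (limma adjusted p 0.415).

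In the adaptor and RAS-ERK cascade list 0 of 17 tested genes were called, beside 2.52% of all tested genes. The fitted changes ran from -0.23 to 0.14 on the log2 scale, with a median of -0.04. The ones with the smallest p were MAP2K2 (0.14), FRS3 (-0.23) and GRB2 (-0.09), with limma adjusted p of 0.433, 0.535 and 0.541. Among 14 other feedback regulators 0 were called. DUSP4, a nuclear ERK phosphatase, averaged 30.6 ± 2.60 FPKM in controls and 37.0 ± 2.95 FPKM in morphants (log2 fold change 0.27, limma adjusted p 0.0902). Its groups did not overlap, as in 6.04% of all tested genes in either direction. DUSP5, another nuclear ERK phosphatase, averaged 21.5 ± 2.91 and 15.9 ± 3.58 FPKM (-0.45, limma adjusted p 0.137), and CBL, a ubiquitin ligase of receptor kinases, 13.1 ± 1.59 and 10.6 ± 0.945 FPKM (-0.28, limma adjusted p 0.152).

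Of 9 further tested FGF-ERK target genes 0 were called. PHLDA1 averaged 97.6 ± 16.4 FPKM in controls and 69.6 ± 14.9 FPKM in morphants (-0.50, limma adjusted p 0.119), ETV1, the third PEA3 factor, 5.97 ± 0.919 and 6.92 ± 0.377 FPKM (0.21, limma adjusted p 0.34), and CCND1, cyclin D1, 31.1 ± 1.53 and 33.1 ± 1.03 FPKM (0.09, limma adjusted p 0.463). Of 7 tested ETS factors and repressors that ERK regulates 0 were called, with ATXN1L, a partner of the repressor CIC, at -0.27 (limma adjusted p 0.127), ETS2 at 0.20 (0.289) and ELK3 at 0.15 (0.469). Of 10 other tested receptor tyrosine kinase genes 0 were called, with INSR at -0.32 (limma adjusted p 0.158), PDGFRA at -0.34 (0.211) and KDR at 0.40 (0.232). The authors' deposited table lists DUSP4 (log2 fold change 0.27, adjusted p 0.0482), SDC3 (-0.45, adjusted p 0.0345) and PHLDA1 (-0.49, adjusted p 0.0469) from these lists, and no other gene of them.

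**Figure D4:**
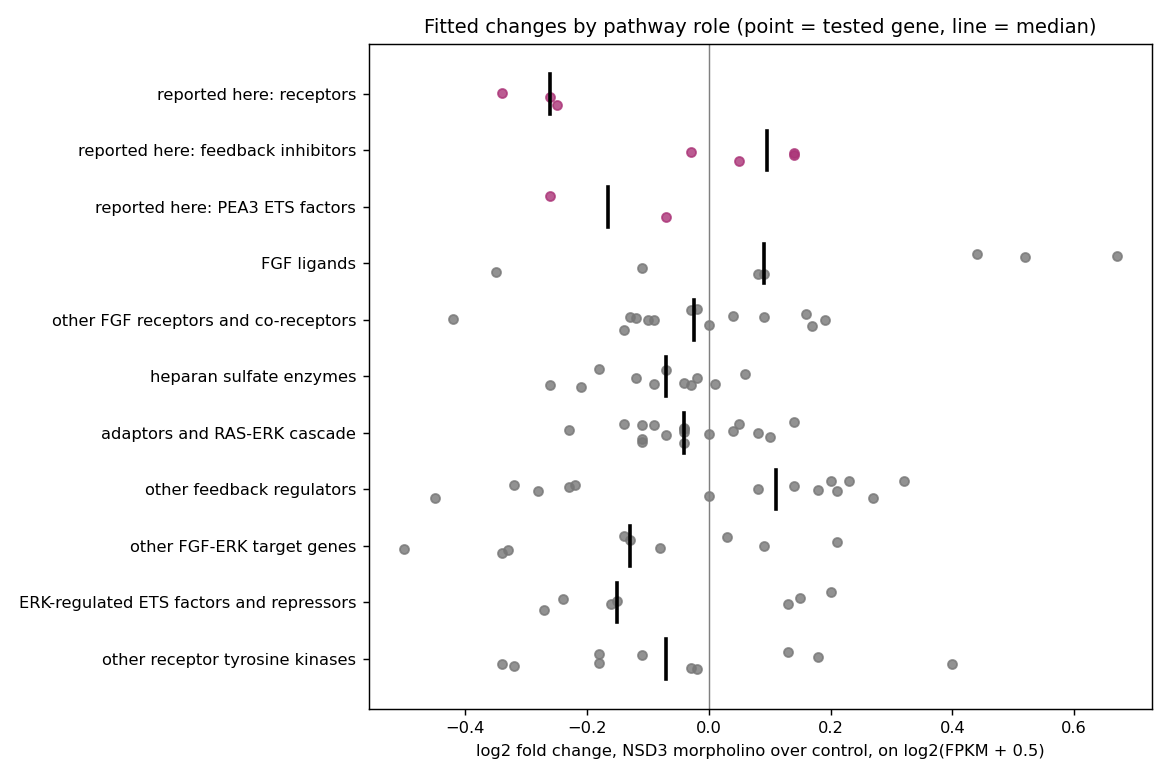
Fitted log2 fold change (horizontal axis) of each tested gene by its role in the pathway; vertical lines are medians. The 3 receptors lie between -0.34 and -0.25. In the fit over all 11935 genes 0 genes of any role shown were called, where 2.52% of all tested genes were.

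Markers of the tissue were strongly expressed, and some of them differed between the groups. The summed FPKM of 13 neural fold and neural crest markers ran from 1290 to 2220 in controls, highest in control replicate 5, and from 1020 to 1430 in morphants. All 13 had a fitted log2 fold change below 0, with a median of -0.39. Over all 11935 tested genes, 6044 were below 0 and 122 were called lower. The marker fold changes are given with all pools only, and some rest on control replicates 4 and 5. MSX1 stood at 456 and 472 FPKM there, at 253 to 264 FPKM in the other controls and at 226 to 316 FPKM in morphants. PAX3 stood at 15.0 and 21.4 FPKM there, at 7.66 to 10.4 FPKM in the other controls and at 9.70 to 13.3 FPKM in morphants. Of the 13, 3 were called lower, ZIC1 (-0.77), SOX9 (-0.95) and TFAP2B (-0.66). PAX7 (-0.38), TFAP2A (-0.34) and FOXD3 (-0.71) were not called (limma adjusted p 0.107, 0.111 and 0.133). The authors' deposited table lists 4 of the 13, PAX7 and the 3 called here, all as lower. The 9 head mesoderm markers summed to 17.7 to 24.7 FPKM in controls and 26.2 to 39.1 FPKM in morphants, and 1 of 4 tested, FOXC2, rose. The 7 endoderm markers summed to 26.4 to 31.9 FPKM in controls and 25.6 to 34.2 FPKM in morphants. Most of that was CXCR4, at 26.9 and 27.2 FPKM, while HHEX averaged 1.55 and 1.70 FPKM and SOX17 was at most 0.257 FPKM in any pool. The 6 blood and endothelium markers with a row summed to 9.70 to 19.3 FPKM in controls and 10.4 to 18.3 FPKM in morphants. PECAM1 averaged 8.47 and 7.01 FPKM, LMO2 3.93 and 5.72 FPKM and KDR 0.879 and 1.31 FPKM (limma adjusted p 0.664, 0.307 and 0.232), and CDH5 was at most 0.325 FPKM in any pool. Of 2 endoderm and 3 blood and endothelium markers tested, 0 were called. Non-neural and placodal ectoderm markers summed to 280 to 352 FPKM in controls and 323 to 384 FPKM in morphants, and notochord and floor plate markers to 6.80 to 14.3 and 8.04 to 11.0 FPKM, again with 0 called. Markers of heart muscle summed to at most 2.72 FPKM. The part of these tissue differences in the lower receptor levels was not tested.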

How the data were processed

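The authors deposited FPKM per gene (19168 rows) for 10 libraries. Per the file headers, a second deposited table holds log2 fold changes, adjusted p-values and mean counts (estimated counts, not whole) of 674 changed genes. The submitters' processing notes name build GRCg6a (galGal6) and the tools DESeq2 1.28.1, STAR 2.5.3a and Trimmomatic 0.32, without their roles. How reads were counted, and on which annotation, is not given in the sources used here. Median-ratio factors of the deposited FPKM were the same in every library (1.004), so the values lay on that scale already. The columns on another published data set were not used.

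FPKM are not counts, so limma 3.58.1 (R 4.3.3) was fitted to log2(FPKM + 0.5) with a mean-variance trend and 1 term for group, over 11935 genes whose mean FPKM reached 1. Tests were two-sided, with Benjamini-Hochberg adjustment over all genes tested and calls made at an adjusted p under 0.05. The fit was tested on simulated data with noise independent between genes and changes larger than those fitted for the FGF genes. That test does not show how well changes as small as these are found. Percent differences are of group means of FPKM. Correlations used 100000 permutations of the pools. Summaries and plots used Python 3.11.15, pandas 2.3.3, numpy 2.4.6 and matplotlib 3.10.9. The use of strand in counting is not given either, so overlapping genes may share reads.

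The 10 genes and the pathway lists were chosen with earlier results of these data known. Named genes are the 10, the called genes and the 3 with the smallest p of each pathway list, the ligands above 1 FPKM, the 5 genes most like the feedback profile, and NSD3. FGFR4, FGFRL1, PAX7, TFAP2A and the endoderm, blood and endothelium markers were added after their values were seen. Replicate numbers were not used to pair pools: over all tested genes, same-numbered pools had correlated deviations of over 0.1 in 2 of 5 pairs. Identical values in 2 pools of a group made up at most 0.142% of tested genes.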

Additional observations from a re-analysis of the deposited data

Results flagged for a closer look

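In 5 of 34 groups of 5 pools (10 genes and 7 ligands, each in 2 groups), the highest or lowest pool stood apart by Dixon's criterion. For separate groups of normally spread values, chance meets it in about 1 group in 20. Of the 5, 4 were the same pool, control replicate 5, in genes measured in the same libraries. The groups are therefore not separate, and their count cannot be set against that rate. In control replicate 5, SPRY2 stood at 15.1 FPKM with the next control at 10.2 FPKM, a gap of 0.719 of the group's range. SPRY4 stood there at 0.857 against 0.382 FPKM (0.725 of the range) and DUSP6 at 26.9 against 20.002 FPKM (0.722). FGF8 stood there at 15.5 against 6.38 FPKM (0.793). In morphant replicate 3, ETV4 was the low pool, at 10.3 FPKM with the next at 12.0 FPKM (0.738 of the range). Relative depth was 1.02 in control replicate 5 and 0.887 in morphant replicate 3, the lowest of the 10 libraries.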

How the results depend on the processing

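The fit was repeated with other pseudocounts, filters and scalings, with the replicate number as a block, without the trend, with weights per library, and without single pools. FGFR1, FGFR2, FGFR3, ETV5, DUSP6 and SPRY2 kept their direction in all of them. With single pools left out, SPRED1 ran from -0.01 (without control replicate 4) to 0.12, ETV4 from -0.13 to 0.01 (without control replicate 5) and SPRY1 from -0.16 to 0.11 (without control replicate 5), so these 3 changed sign. SPRY1 was also above 0 without morphant replicates 4 (0.01) or 5 (0.08), and with weights per library (0.02). Without control replicates 4 and 5, SPRY1 was 0.15 and SPRED1 -0.04. The count of the 9 genes called lower went from 0 to 1 with FPKM rescaled to the same total, and ran from 0 to 1 when single pools were left out; the cause was not tested. Over all genes, leaving out single pools gave 69 to 211 higher and 32 to 151 lower, both fewest without morphant replicate 2. Weights per library gave 344 higher and 207 lower. With the replicate block, 97 were higher and 62 lower, and the block changed no call among the 9 genes; 2 of 5 controls correlated best with their own number. Pairs with r of at least 0.6 went from 8 to 12 with group means subtracted, to 4 without control replicates 4 and 5 and to 5 without control replicate 5, the last chosen after seeing the data. SPRY4 is limited by its low level, and read totals were not used, so no counting intervals are given.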

Other observations

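FGF8 and the 10 genes were compared across the 10 pools after the data were seen, as 10 relations of log2(FPKM + 0.5) values. The adjustment over these 10 relations does not cover the choice of FGF8, so the adjusted p-values are given as a description. SPRY2 was the closest, with Pearson's r = 0.84 (permutation p 0.00231, 0.0231 after Benjamini-Hochberg adjustment over the 10) and Spearman's rho = 0.81 (permutation p 0.00727, adjusted 0.0727). It was 0.58 without the 2 pools farthest from the median of FGF8, control replicates 3 and 5, and 0.74 without control replicate 5 alone. SPRY1 had r = 0.74 (permutation p 0.0151, adjusted 0.0757) and rho = 0.59 (permutation p 0.0807, adjusted 0.294), and 0.19 without those 2 pools. ETV4 had r = 0.68 (permutation p 0.0397, adjusted 0.0997) and rho = 0.53 (permutation p 0.122, adjusted 0.306), and 0.37 without them. DUSP6 had r = 0.64 (permutation p 0.0399, adjusted 0.0997) and rho = 0.58 (permutation p 0.0881, adjusted 0.294), and -0.03 without them, so the SPRY1, ETV4 and DUSP6 relations rest on those pools. Of the 10 relations 4 had r of at least 0.6, and 1 without control replicate 5. The lowest of the 10 was FGFR3, with r = -0.42 (permutation p 0.23, adjusted 0.329) and rho = -0.49 (permutation p 0.154, adjusted 0.308), and -0.52 without those 2 pools.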
